A study of Mus musculus with 8 samples.

Results

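Cadherins are membrane proteins that hold neighbouring cells together through repeated extracellular domains that bind calcium. The genes described here are the 94 gene symbols, of 23420 counted, that are written as Cdh followed only by a number or that begin with Pcdh. They comprise 23 numbered cadherins, 59 clustered protocadherins (15 Pcdha, 22 Pcdhb and 22 Pcdhg entries) and 12 other protocadherins. The rule reads gene symbols only. Read counts per gene came from RNA-seq of 4 Neat1 null (Neat1-/-) and 4 wild-type libraries of mouse embryonic fibroblasts. Neat1 is a long noncoding RNA that builds nuclear paraspeckles. The cells of both groups were of strain C57BL6/N and expressed the adenoviral oncoprotein E1A together with activated Ras (HRasV12), so the wild-type cells are oncogene-expressing fibroblasts and not primary ones. The sources used here state neither what drove the oncogenes nor how many embryos or cultures stand behind each genotype. The p-values therefore measure only the spread between these libraries.

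Type I classical cadherins, such as E-cadherin (Cdh1) and N-cadherin (Cdh2), bind the same cadherin on the next cell and connect through beta-, alpha- and p120-catenin to actin. Type II cadherins, such as Cdh6 and Cdh11, share this design but bind through a different interface. Fibroblasts are known for N-cadherin and Cdh11 and epithelia for E-cadherin. The clustered protocadherins lie in 3 neighbouring tandem arrays. Each variable exon has its own promoter, and in the Pcdha and Pcdhg arrays it is spliced to constant exons shared by the whole array, whereas Pcdhb genes have a single coding exon. Neurons choose a few variable exons per cell, with CTCF and cohesin bringing a distal enhancer to the chosen promoter. The other protocadherins are scattered single genes that are best known from the developing nervous system.

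Of the 7 members that passed the test described below, 4 lie in the clusters and 3 elsewhere, and the promoters of those 3 show where their transcripts begin. Each run holds 250 bases before and 50 bases after the RefSeq start on GRCm38.p6. Capitals mark the E-box CAGGTG or its reverse complement CACCTG, the motif bound by the Snail and Zeb repressors of Cdh1.
Pcdh7 (chr5:57717831-57718130, plus strand): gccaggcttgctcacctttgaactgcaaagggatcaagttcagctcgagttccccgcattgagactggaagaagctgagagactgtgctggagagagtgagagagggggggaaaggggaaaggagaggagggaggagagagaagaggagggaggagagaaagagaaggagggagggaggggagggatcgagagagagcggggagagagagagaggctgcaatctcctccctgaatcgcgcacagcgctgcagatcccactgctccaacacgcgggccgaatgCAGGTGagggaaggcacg
Pcdh18 (chr3:49757267-49757566, minus strand): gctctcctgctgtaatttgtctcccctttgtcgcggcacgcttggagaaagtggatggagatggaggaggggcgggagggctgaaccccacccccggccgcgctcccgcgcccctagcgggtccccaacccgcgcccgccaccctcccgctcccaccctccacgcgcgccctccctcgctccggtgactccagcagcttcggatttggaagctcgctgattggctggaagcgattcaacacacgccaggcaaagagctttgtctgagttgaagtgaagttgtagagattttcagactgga
Cdh6 (chr15:13173626-13173925, minus strand): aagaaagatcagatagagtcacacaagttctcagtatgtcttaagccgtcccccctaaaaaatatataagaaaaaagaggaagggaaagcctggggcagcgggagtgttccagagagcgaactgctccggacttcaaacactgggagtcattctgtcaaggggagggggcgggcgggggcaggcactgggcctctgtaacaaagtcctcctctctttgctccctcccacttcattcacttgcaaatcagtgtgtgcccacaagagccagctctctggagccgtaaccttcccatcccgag
The Pcdh7 window held 1 such E-box, which began 33 bases into the transcribed part, and the Pcdh18 and Cdh6 windows held 0. The motif was searched on both strands. It occurred in at least 1 promoter of 3 of the 22 members that had a promoter sequence (Pcdh7, Pcdh15 and Cdh7). Counted by promoter and not by gene, 20.2% of all 32851 promoters held it. Cdh7 and Pcdh9 have more than 1 promoter, so the count of members and the share of promoters cannot be compared.

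The Neat1 null libraries held 19651035 to 38950207 counts in genes and the wild-type libraries 31651625 to 37069334. Counts were scaled to a common library size of 1000000 (CPM) with TMM factors, which ranged from 0.567 to 1.05 in Neat1 null and from 1.08 to 1.33 in wild-type libraries. Neat1 itself was at 6.92, 11.3, 7.90 and 6.12 CPM in Neat1 null libraries, against 138, 588, 753 and 1320 CPM in wild-type libraries. The first principal component held 52.5% of the variance. Its scores were 103, 16.9, 91.1 and 28.4 in Neat1 null libraries 1 to 4, against -17.2, -41.3, -89 and -92.1 in wild-type libraries 1 to 4. Neat1 null libraries 1 and 3 thus lay at its positive end and wild-type libraries 3 and 4 at its negative end. Neat1 null libraries 1 and 3 also had the lowest slopes of level on gene length (-0.314 and -0.477). Slopes were 0.136 to 0.246 in wild-type libraries, with wild-type libraries 3 and 4 the highest (0.246 and 0.245). Ribosomal protein genes took 8.42% to 25.4% of the counts in Neat1 null and 5.99% to 7.05% in wild-type libraries, and the ribosomal RNA entry Rn45s took 5.23% in Neat1 null library 1. The part of these measures in the cadherin results was not tested beyond the length and GC correction. By Xist and Y-linked genes, Neat1 null libraries 1, 2 and 4 were male, whereas Neat1 null library 3 and all 4 wild-type libraries were female. Sex therefore largely coincides with genotype and the 2 cannot be told apart here. Of the fibroblast markers, Vim was at 1891 to 3263 CPM in Neat1 null and 1233 to 2184 CPM in wild-type libraries, while Col1a1 was at 1.29 to 5.75 CPM in Neat1 null and 2.98 to 12.4 CPM in wild-type libraries. Lum was at 0 in every Neat1 null library and in 2 of the 4 wild-type libraries. Fn1 was at 431 to 1389 CPM in Neat1 null and 505 to 918 CPM in wild-type libraries. Of the 14 fibroblast markers, these 2 were over 100 CPM in every library, and 8 were under 10 CPM in at least 6 of the 8 libraries, levels chosen after the values were seen. The epithelial marker Epcam was at 34.0 to 64.6 CPM in Neat1 null and 26.9 to 57.1 CPM in wild-type libraries.

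Cadherins and protocadherins were lower in Neat1 null cells in 7 members and higher in 0 of the 44 that had enough reads to be tested (edgeR quasi-likelihood test, adjusted p under 0.05 over all 13316 genes tested). Those called lower were Cdh6, Pcdhac2, Pcdhb16, Pcdhb17, Pcdhb18, Pcdh7 and Pcdh18. They make up 15.9% of the tested members, against 7.72% of all tested genes called lower and 9.97% called higher. At an unadjusted p under 0.05, 14 members were lower and 0 higher, where 17.3% of all genes were lower. Other fits tested more members. DESeq2 called 15 of 59 lower and 0 higher, where it called 11.2% of all genes lower. With no low-count filter edgeR called 12 of 88 lower and 1 higher, where 6.46% of all genes were lower, and Pcdh18 was not among them. The median log2 fold change of the 44 was -1.0, against -0.06 over all tested genes, and 35 of the 44 were negative. In bulk libraries such as these, fewer cells expressing a gene and less RNA per cell cannot be told apart.

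These counts depend on single libraries and on the filter. No member passed without Neat1 null library 3, wild-type library 3 or wild-type library 4, where edgeR called only 13, 18 and 11 genes in all. At an unadjusted p under 0.05, 13 of 50, 10 of 46 and 11 of 46 tested members were lower in these fits, where 15.3%, 12% and 11.7% of all genes were. The 7 log2 fold changes stayed negative whichever library was left out. Of the 44 tested members, 21 reached the cutoff of the low-count filter in every wild-type library but not in every Neat1 null library. Pcdhac2, Pcdhb16, Pcdhb17 and Pcdhb18 were among them. Of all tested members, 2 reached the cutoff in no Neat1 null library. Passing the filter in this way by itself favours lower values in Neat1 null cells. Members are long transcripts, with a median exon length of 5366 bases against 4458 over all tested genes. After a correction of every library for length and GC content of the genes, 6 of the 7 passed, all but Pcdh18, where 4.73% of all genes were called lower and 7.49% higher. The corrected median was -0.66 for the members and 0.09 for all genes.

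The other 50 members had too few reads to test, and 22 members had at most 3 counts in every library. These 22 were 8 Pcdha, 8 Pcdhb, 1 type I, 2 type II, 2 other numbered cadherin and 1 other protocadherin gene. No read was counted in any library for 6 members, 3 of them Pcdha and 3 Pcdhb. Another 17 members had reads in wild-type libraries only, between 1 and 34 counts in all. In the opposite direction, Cdh4 and Cdh13 had reads in Neat1 null libraries only, with 5 and 42 counts in all. The Neat1 null libraries together held 122394258 counts in genes and the wild-type libraries 136129034, before the TMM factors. Those were 0.567 to 1.05 in Neat1 null and 1.08 to 1.33 in wild-type libraries. At the same CPM a gene thus has fewer counts in the Neat1 null group, which by itself favours reads in wild-type libraries only. The share of all genes with reads in a single group was not counted, so these numbers of members are a description only.

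Summed over all members of a class, tested or not, levels separated the groups in some classes and overlapped in others. The Pcdha cluster summed to 0.180, 0.587, 0.212 and 0.533 CPM in Neat1 null libraries, against 2.17, 4.99, 5.73 and 7.74 CPM in wild-type libraries, so the Neat1 null mean was 7.32% of the wild-type mean. The Pcdhb cluster summed to 3.14, 5.19, 0.811 and 5.52 CPM in Neat1 null libraries and to 24.6, 9.04, 33.3 and 18.3 CPM in wild-type libraries, or 17.2% of the wild-type mean. In both clusters all 4 Neat1 null libraries lay below all 4 wild-type libraries. The other protocadherins summed to 70.4 ± 36.8 CPM in Neat1 null and 181 ± 46.8 CPM in wild-type libraries (SD, n = 4 each), and type II cadherins to 20.9 ± 7.61 CPM in Neat1 null and 39.7 ± 8.63 CPM in wild-type libraries. These classes did not overlap either, but each separation rested on a single gene, and so did that of the Pcdha cluster. There, Pcdhac2 held 50% to 100% of the counts in Neat1 null and 65.9% to 99.1% in wild-type libraries. The sums of Pcdha1 to Pcdha12 overlapped between the groups. In type II, Neat1 null library 4 summed to 28.5 and wild-type library 2 to 30.2 CPM, of which Cdh6 held 2.20 and 15.5 CPM. In the other protocadherins the same libraries summed to 101 and 116 CPM, of which Pcdh7 held 39.8 and 57.3 CPM. Without Cdh6 or Pcdh7 the sums of these classes would overlap. The Pcdhg cluster, at 124 ± 61.6 CPM in Neat1 null and 115 ± 11.5 CPM in wild-type libraries, and the type I cadherins, at 43.8 ± 19.5 CPM in Neat1 null and 52.2 ± 11.9 CPM in wild-type libraries, overlapped. No test was run on these sums.

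**Figure D1:**
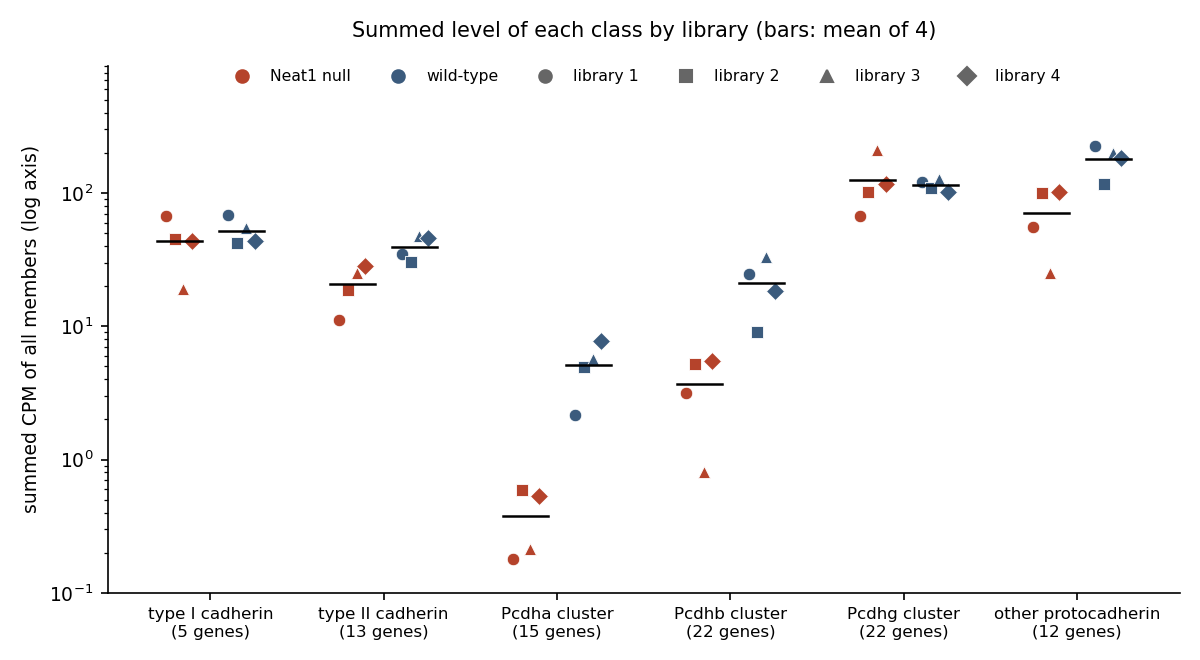
Summed level of each class of cadherin and protocadherin genes in each library (CPM, log axis), with Neat1 null libraries left of wild-type libraries 1 symbol per library number and a bar at the mean of 4. The Pcdha and Pcdhb clusters, type II cadherins and other protocadherins show no overlap between groups, whereas the Pcdhg cluster and type I cadherins do. The Pcdha separation rests on Pcdhac2, that of type II on Cdh6 and that of the other protocadherins on Pcdh7.

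Among the type I cadherins, Cdh2, or N-cadherin, was the most abundant. It was at 61.2, 36.8, 13.7 and 31.9 CPM in Neat1 null libraries and at 61.7, 35.3, 30.0 and 30.1 CPM in wild-type libraries. The groups overlapped, library 1 of each group being the highest and Neat1 null library 3 the lowest, and the log2 fold change of -0.13 (SE 0.43) did not pass (edgeR adjusted p = 0.841). Its sign changed to 0.26 after the length and GC correction and to 0.15 without Neat1 null library 3. Cdh1, or E-cadherin, was at 1.35, 6.22, 1.48 and 4.74 CPM in Neat1 null libraries and at 2.49, 4.99, 16.5 and 7.86 CPM in wild-type libraries. Wild-type library 3 was the highest, the groups overlapped, and the log2 fold change was -1.19 (SE 0.63, edgeR adjusted p = 0.184), or -0.56 without that library. The log2 fold changes of the 4 tested type I cadherins ran from -1.65 to 0.86. The highest was that of Cdh15, the M-cadherin of muscle cells, named outside the rule, which did not pass (SE 0.58, edgeR adjusted p = 0.299).

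Type II cadherins held 1 called member, Cdh6, or K-cadherin, which is known from developing kidney and neural crest. Cdh6 lies on chromosome 15 (13028701 to 13173675, minus strand, GRCm38) and was at 5.93, 2.87, 1.41 and 2.20 CPM in Neat1 null libraries, against 13.7, 15.5, 26.3 and 27.8 CPM in wild-type libraries. Every Neat1 null library was below every wild-type library, wild-type libraries 3 and 4 being the highest. The log2 fold change was -2.77 (SE 0.49, edgeR adjusted p = 0.018), and -1.99 with an adjusted p of 0.0348 after the length and GC correction. Leaving out single libraries moved it between -3.27 and -2.51.

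The other 4 tested type II cadherins did not pass, and 8 had too few reads to test, of which Cdh20 was called lower with no low-count filter (edgeR adjusted p = 0.0262). Cdh20 had 0 counts in every Neat1 null library and 0, 4, 10 and 20 in wild-type libraries, so its groups overlapped at 0. Cdh24, a little-studied type II cadherin, was at 4.31, 11, 21.7 and 17.6 CPM in Neat1 null libraries and at 12.5, 8, 7.46 and 6.69 CPM in wild-type libraries. Neat1 null library 1 was the lowest and the other 3 Neat1 null libraries included the 2 highest, and the log2 fold change was 0.66 (SE 0.46, edgeR adjusted p = 0.314). Cdh11, the cadherin of mesenchymal cells, was at 0.449, 0.851, 0.0706 and 2.57 CPM in Neat1 null libraries and at 3.58, 0.442, 5.41 and 1.75 CPM in wild-type libraries. It was low in both groups, which overlapped, with a log2 fold change of -1.47 (SE 0.87, edgeR adjusted p = 0.232) that was -2.58 without Neat1 null library 4. Cdh5, or VE-cadherin of endothelial cells, stayed at or below 0.596 CPM in Neat1 null and 0.504 CPM in wild-type libraries, with a log2 fold change of -0.33 (SE 0.82, edgeR adjusted p = 0.796). Its sign changed to 0.10 without Neat1 null library 3 and to 0.44 without Neat1 null libraries 1 and 3 together.

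None of the 5 other numbered cadherins had enough reads to test. Of these, Cdh13, or T-cadherin, which is anchored by a lipid and lacks a cytoplasmic tail, had 0, 27, 0 and 15 counts in Neat1 null libraries and 0 in every wild-type library. The reads came from 2 Neat1 null libraries alone. With no low-count filter edgeR called it higher (adjusted p = 0.017), but the 2 other Neat1 null libraries were at 0 like the wild-type ones. Cdh13 was chosen after its values were seen.

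**Figure D2:**
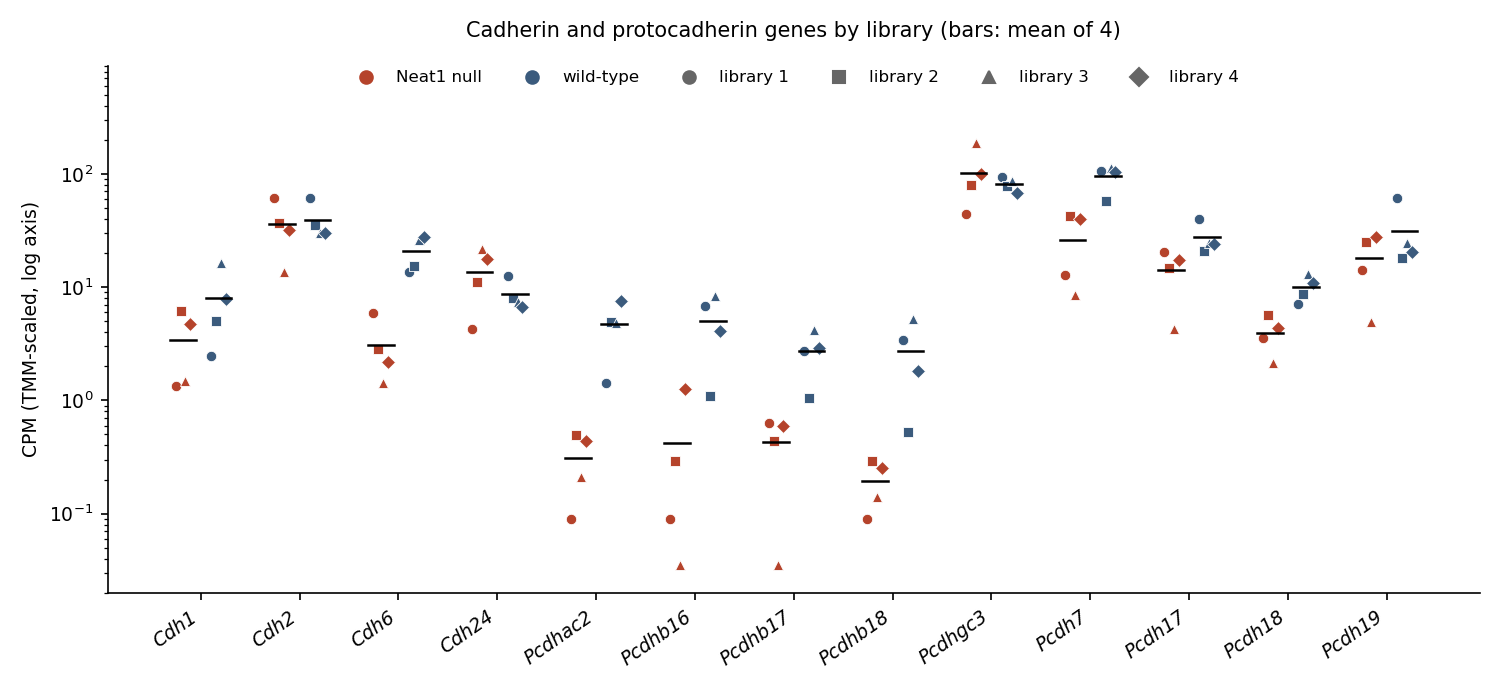
Level of some of the members named in the text in each library (CPM, log axis), Neat1 null left of wild-type, with 1 symbol per library number and a bar at the mean of 4. Cdh6, Pcdhac2, Pcdhb17, Pcdhb18, Pcdh7, Pcdh17 and Pcdh18 show no overlap between groups, though Pcdh17 did not pass the test. Cdh1, Cdh2, Cdh24, Pcdhb16, Pcdhgc3 and Pcdh19 overlap.

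The clustered protocadherins lie on chromosome 18 of GRCm38, all on the plus strand, in the order Pcdha (36930184 to 37187661), Pcdhb (37264938 to 37524479) and Pcdhg (37661793 to 37841873). Their paralogs are alike in sequence, so the assignment of reads between them is uncertain. Reads in the constant exons that Pcdha or Pcdhg genes share are ambiguous between genes, and how the authors' counter treated them is not given in the sources used here. As a share of all counts in the 3 clusters, which does not depend on the scaling of libraries, Pcdhg made up 95.3%, 94.7%, 99.5% and 95.1% in Neat1 null libraries, against 81.9%, 88.7%, 76.6% and 79.7% in wild-type libraries. Every Neat1 null library had a larger Pcdhg share than every wild-type library. The Pcdhb share was 0.382% to 4.80% in Neat1 null and 7.30% to 20% in wild-type libraries, and the Pcdha share was 0.0996% to 0.542% in Neat1 null and 1.47% to 6.03% in wild-type libraries.

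In the Pcdha cluster 1 of 15 entries could be tested. This was Pcdhac2, the last variable exon of the array and one of the C-type genes that do not take part in the random choice known from neurons. Pcdhac2 was at 0.0898, 0.499, 0.212 and 0.439 CPM in Neat1 null libraries, against 1.43, 4.95, 4.78 and 7.59 CPM in wild-type libraries. All Neat1 null libraries were below wild-type library 1, the lowest of its group. The log2 fold change of -3.82 (SE 0.68, edgeR adjusted p = 0.018) was the most negative of the tested members, and it was -3.65 (adjusted p = 0.0348) after the length and GC correction. The variable genes Pcdha1 to Pcdha12 were scarce, with 1, 3, 0 and 3 counts in all in Neat1 null libraries and 28, 2, 41 and 6 in wild-type libraries. Most of these reads came from wild-type libraries 1 and 3. Among them Pcdha8 had 0 counts in every Neat1 null library and 7, 1, 8 and 3 in wild-type libraries, and Pcdha9 had 0 in every Neat1 null library and 2, 0, 7 and 0 in wild-type libraries.

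In the Pcdhb cluster all 6 tested genes had negative log2 fold changes, with a median of -2.40, and 3 of them passed. The 6 are among the genes that reached the cutoff of the low-count filter in every wild-type but not in every Neat1 null library. That favours negative values, so their shared direction is a description only. Pcdhb18 was at 0.0898, 0.293, 0.141 and 0.251 CPM in Neat1 null libraries, against 3.39, 0.530, 5.24 and 1.8 CPM in wild-type libraries. The groups did not overlap, and wild-type library 2 was the closest to the Neat1 null libraries. Its log2 fold change was -3.72 (SE 0.75, edgeR adjusted p = 0.018), though a stricter filter (1 CPM or more in 4 libraries) left it untested. Its neighbour Pcdhb17 was at 0.629, 0.440, 0.0353 and 0.596 CPM in Neat1 null libraries, against 2.73, 1.06, 4.22 and 2.92 CPM in wild-type libraries. Here too wild-type library 2 was the lowest of its group and above every Neat1 null library, and the log2 fold change was -2.71 (SE 0.73, edgeR adjusted p = 0.0248).

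Pcdhb16 was at 0.0898, 0.293, 0.0353 and 1.26 CPM in Neat1 null libraries, against 6.79, 1.10, 8.34 and 4.07 CPM in wild-type libraries. Neat1 null library 4 lay just above wild-type library 2, so the groups overlapped. The log2 fold change was -3.51 (SE 0.89, edgeR adjusted p = 0.0217), and -5.03 without Neat1 null library 4. After the length and GC correction Pcdhb16, Pcdhb17 and Pcdhb18 had adjusted p-values of 0.0429, 0.0429 and 0.0348. Pcdhb22, at the end of the array, was at 0.629, 2.29, 0.317 and 1.44 CPM in Neat1 null libraries and at 3.15, 3.87, 5.48 and 3.77 CPM in wild-type libraries. The groups were apart, but the log2 fold change of -1.77 (SE 0.60) missed the threshold (edgeR adjusted p = 0.0538). Pcdhb22 passed without Neat1 null library 2 (edgeR adjusted p = 0.0277) or wild-type library 1 (0.0493) and with DESeq2 (adjusted p = 0.0115). Pcdhb15 was at 0.359, 0.499, 0.106 and 1.35 CPM in Neat1 null libraries and at 4.06, 1.22, 3.01 and 1.85 CPM in wild-type libraries. Neat1 null library 4 was above wild-type library 2, and the log2 fold change was -2.09 (SE 0.71, edgeR adjusted p = 0.0528). Pcdhb15 passed without Neat1 null library 4 (-2.95, edgeR adjusted p = 0.0231) and with DESeq2 (adjusted p = 0.0117).

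Reads of the Pcdhb cluster came mostly from its distal end. Pcdhb14 to Pcdhb22 summed to 3.46 ± 2.15 CPM in Neat1 null and 20.4 ± 10.0 CPM in wild-type libraries (SD, n = 4 each). Pcdhb1 to Pcdhb13, at the proximal end, summed to 0.208 ± 0.0683 CPM in Neat1 null and 0.967 ± 0.367 CPM in wild-type libraries, and none of these 13 genes could be tested.

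**Figure D3:**
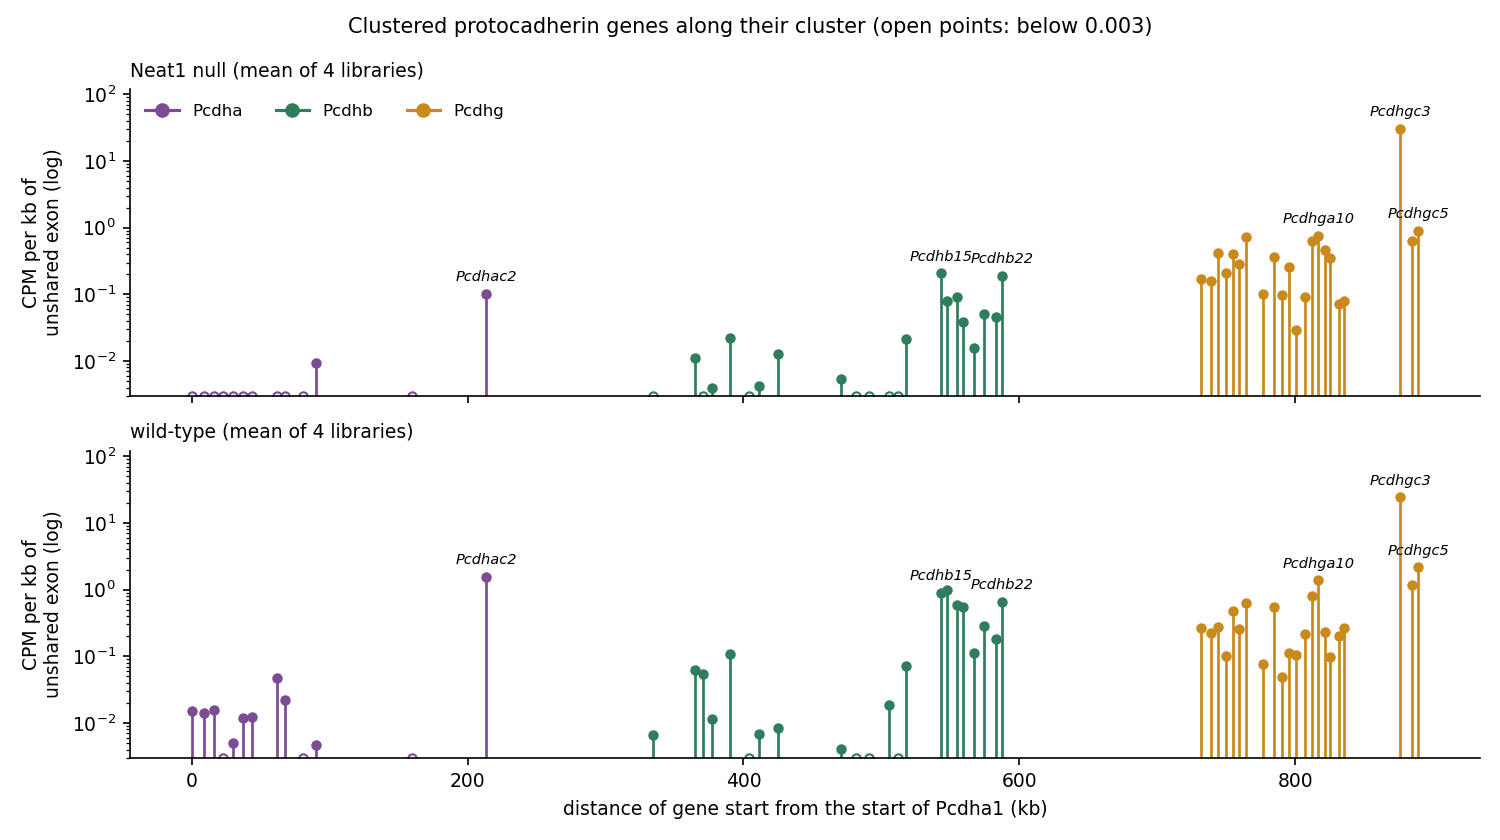
Mean level of each clustered protocadherin gene (CPM per kb of unshared exon, log axis, open points below 0.003) against its distance from the start of Pcdha1 (kb), for Neat1 null libraries in the upper and wild-type libraries in the lower panel. Neat1 null values lie below wild-type values at Pcdhac2 and across the distal Pcdhb genes, while in the Pcdhg array the values intermingle and Pcdhgc3 is the highest in both groups.

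The Pcdhg cluster was the most strongly expressed of the 3 clusters and had 0 called genes among 19 tested, with 2 lower and 0 higher at an unadjusted p under 0.05 and 1 called by DESeq2. Its median log2 fold change was -0.43, with 12 genes negative and 7 positive in a range from -1.93 to 1.2. Pcdhgc3, a C-type gene that is widely expressed outside the nervous system, was at 44.7, 79.2, 187 and 99.2 CPM in Neat1 null libraries and at 93.7, 78.4, 87.1 and 68.5 CPM in wild-type libraries. Neat1 null libraries 1 and 3 were the lowest and the highest of all 8, and the log2 fold change was 0.32 (SE 0.40, edgeR adjusted p = 0.585). It turned to -0.13 without Neat1 null library 3. Per kilobase of exon not shared with another gene, Pcdhgc3 was the highest of all members, at a mean of 30.3 CPM per kb in Neat1 null and 24.2 CPM per kb in wild-type libraries. It took 66.3% to 88.2% of the Pcdhg counts in Neat1 null and 66.9% to 77.3% in wild-type libraries.

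The neighbouring C-type gene Pcdhgc5 was at 3.23, 4.78, 7.73 and 3.92 CPM in Neat1 null libraries and at 6.02, 8.90, 19.8 and 13 CPM in wild-type libraries. Neat1 null library 3 lay above wild-type library 1, and the log2 fold change of -1.27 (SE 0.46) missed the threshold (edgeR adjusted p = 0.0663), though DESeq2 called it (adjusted p = 0.0428). Pcdhgc4, the third C-type gene and named outside the rule, had a log2 fold change of -0.93 (SE 0.50, edgeR adjusted p = 0.189). The 19 variable genes of the Pcdhga and Pcdhgb types together summed to 15 ± 2.42 CPM in Neat1 null and 17.3 ± 1.26 CPM in wild-type libraries (SD, n = 4 each), and the groups overlapped.

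Which of these variable genes was the highest differed from library to library. In Neat1 null libraries 1 to 4 it was Pcdhga11, Pcdhgb6, Pcdhga10 and Pcdhga3, and in wild-type libraries 1 to 4 it was Pcdhga7, Pcdhga10, Pcdhga12 and Pcdhga10. Pcdhga10 was at 2.25, 0.528, 4.02 and 1.13 CPM in Neat1 null libraries and at 0.663, 8.15, 0.513 and 4.94 CPM in wild-type libraries. Its share of the Pcdhga and Pcdhgb counts ran from 3.45% to 24.7% in Neat1 null and from 3.02% to 45.1% in wild-type libraries, and both groups held libraries with low and with high shares. The log2 fold change was -0.85 (SE 0.83, edgeR adjusted p = 0.476), and it was -0.04 without wild-type library 2 and -1.49 without Neat1 null library 3. Pcdhga12, chosen after its values were seen, had 77, 4, 104 and 12 counts in wild-type libraries 1 to 4. It was thus high in wild-type libraries 1 and 3, where Pcdhga10 was low, and low in wild-type libraries 2 and 4, where Pcdhga10 was high.

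**Figure D4:**
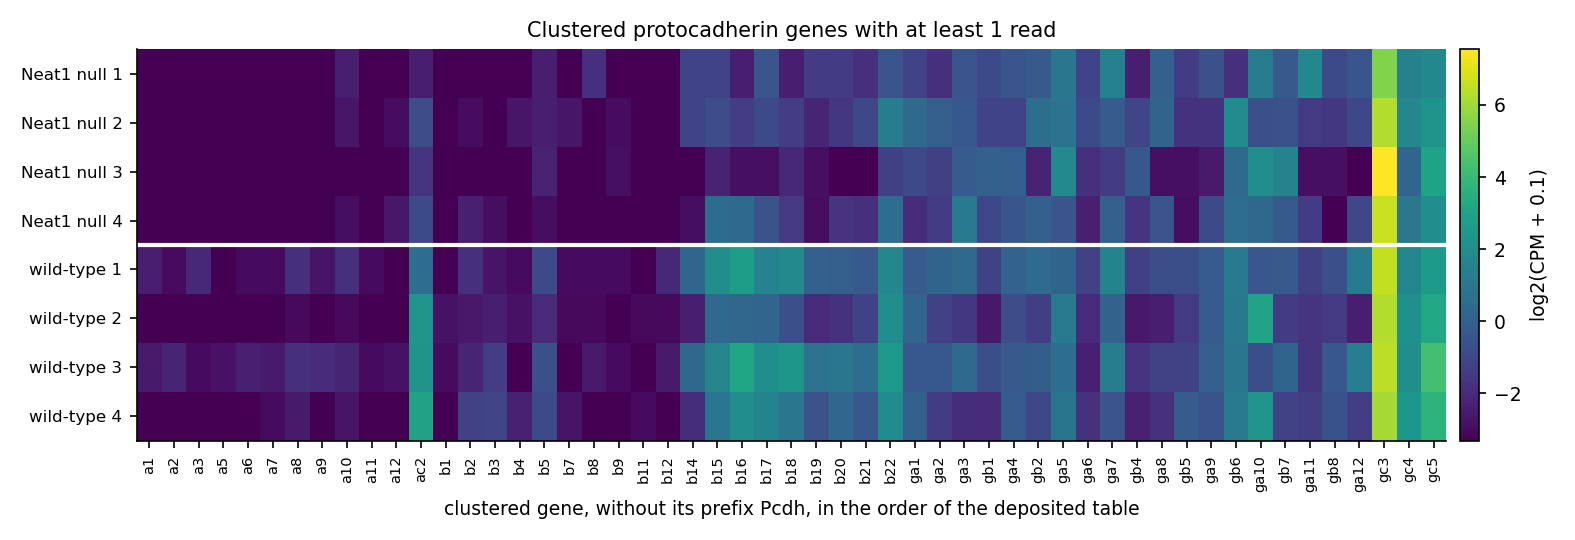
Level of every clustered protocadherin gene (log2(CPM + 0.1), colour) in each library, with genes in columns and Neat1 null libraries above wild-type libraries, for genes with at least 1 read. Pcdhac2 is darker, that is lower, in every Neat1 null library than in every wild-type library. The distal Pcdhb genes are lower in the Neat1 null mean, but in only 3 of the 9 are all Neat1 null libraries below all wild-type libraries. In Pcdhb14, Pcdhb20 and Pcdhb21, wild-type library 2 is below Neat1 null library 2. Pcdhgc3 is high throughout, and the Pcdhga and Pcdhgb columns differ between libraries of the same group.

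The other protocadherins had 2 called members among 9 tested, both lower in Neat1 null cells, and all 9 log2 fold changes were negative, with a median of -1.06. They are the longest transcripts of the set, with a median exon length of 10464 bases among those tested, and after the length and GC correction the median was -0.27, against 0.09 over all genes. Pcdh7, a delta-1 protocadherin that binds protein phosphatase PP1 alpha, was the most abundant of them. It lies on chromosome 5 (57717967 to 58133230, plus strand) and was at 12.7, 42.8, 8.54 and 39.8 CPM in Neat1 null libraries, against 106, 57.3, 114 and 104 CPM in wild-type libraries. The groups did not overlap, though Neat1 null libraries 2 and 4 were nearer to wild-type library 2 than Neat1 null libraries 1 and 3 were. The log2 fold change was -1.88 (SE 0.49, edgeR adjusted p = 0.0233), -1.27 (adjusted p = 0.0472) after the length and GC correction, and -1.22 without Neat1 null libraries 1 and 3 together. Of its 10604 exon bases, 2235 are shared with another annotated gene, so part of its counts is uncertain.

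Pcdh18, a delta-2 protocadherin that binds the adaptor Dab1, was at 3.59, 5.69, 2.12 and 4.39 CPM in Neat1 null libraries, against 7.05, 8.77, 13.1 and 10.9 CPM in wild-type libraries. It lies on chromosome 3 (49743296 to 49757325, minus strand). All Neat1 null libraries were below all wild-type libraries. The log2 fold change was -1.33 (SE 0.44, edgeR adjusted p = 0.047), which fell short after the length and GC correction (-1.02, adjusted p = 0.065). It was also lost without Neat1 null library 1 (adjusted p = 0.0741), Neat1 null library 4 (0.0815) or wild-type library 2 (0.0708), and with no low-count filter (0.0607).

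Pcdh17, a delta-2 protocadherin that recruits the WAVE actin regulator, was at 20.6, 14.9, 4.27 and 17.3 CPM in Neat1 null libraries and at 40.4, 20.9, 24.4 and 24.3 CPM in wild-type libraries. The groups were apart, by a narrow gap between Neat1 null library 1 and wild-type library 2, and the log2 fold change of -0.95 (SE 0.44) did not pass (edgeR adjusted p = 0.135). The X-linked Pcdh19, a delta-2 protocadherin mutated in a form of epilepsy, was at 14.2, 25.3, 4.94 and 27.8 CPM in Neat1 null libraries and at 60.9, 18, 24.8 and 20.6 CPM in wild-type libraries. Wild-type library 1 was far above the rest, the groups overlapped, and the log2 fold change was -0.78 (SE 0.52, edgeR adjusted p = 0.283). After the length and GC correction Pcdh17 and Pcdh19 were at -0.18 and -0.27. Over all tested members, 11 had groups that did not overlap with Neat1 null lower and 0 with Neat1 null higher, where 11% of all genes were apart with Neat1 null lower and 11.7% with Neat1 null higher. Several of the 11 had reached the cutoff of the low-count filter in every wild-type but not in every Neat1 null library. Pcdhac2, Pcdhb17, Pcdhb18, Pcdhb22 and Pcdh9 were among these. Passing the filter in this way favours lower values in Neat1 null cells, so the count of 11 against 0 is a description only. Pcdh9 and Pcdh10 were among the 11, with log2 fold changes of -1.45 (edgeR adjusted p = 0.0902) and -0.74 (edgeR adjusted p = 0.291) that did not pass, and Pcdh10 turned to 0.23 after the length and GC correction. Both were named outside the rule.

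**Figure D5:**
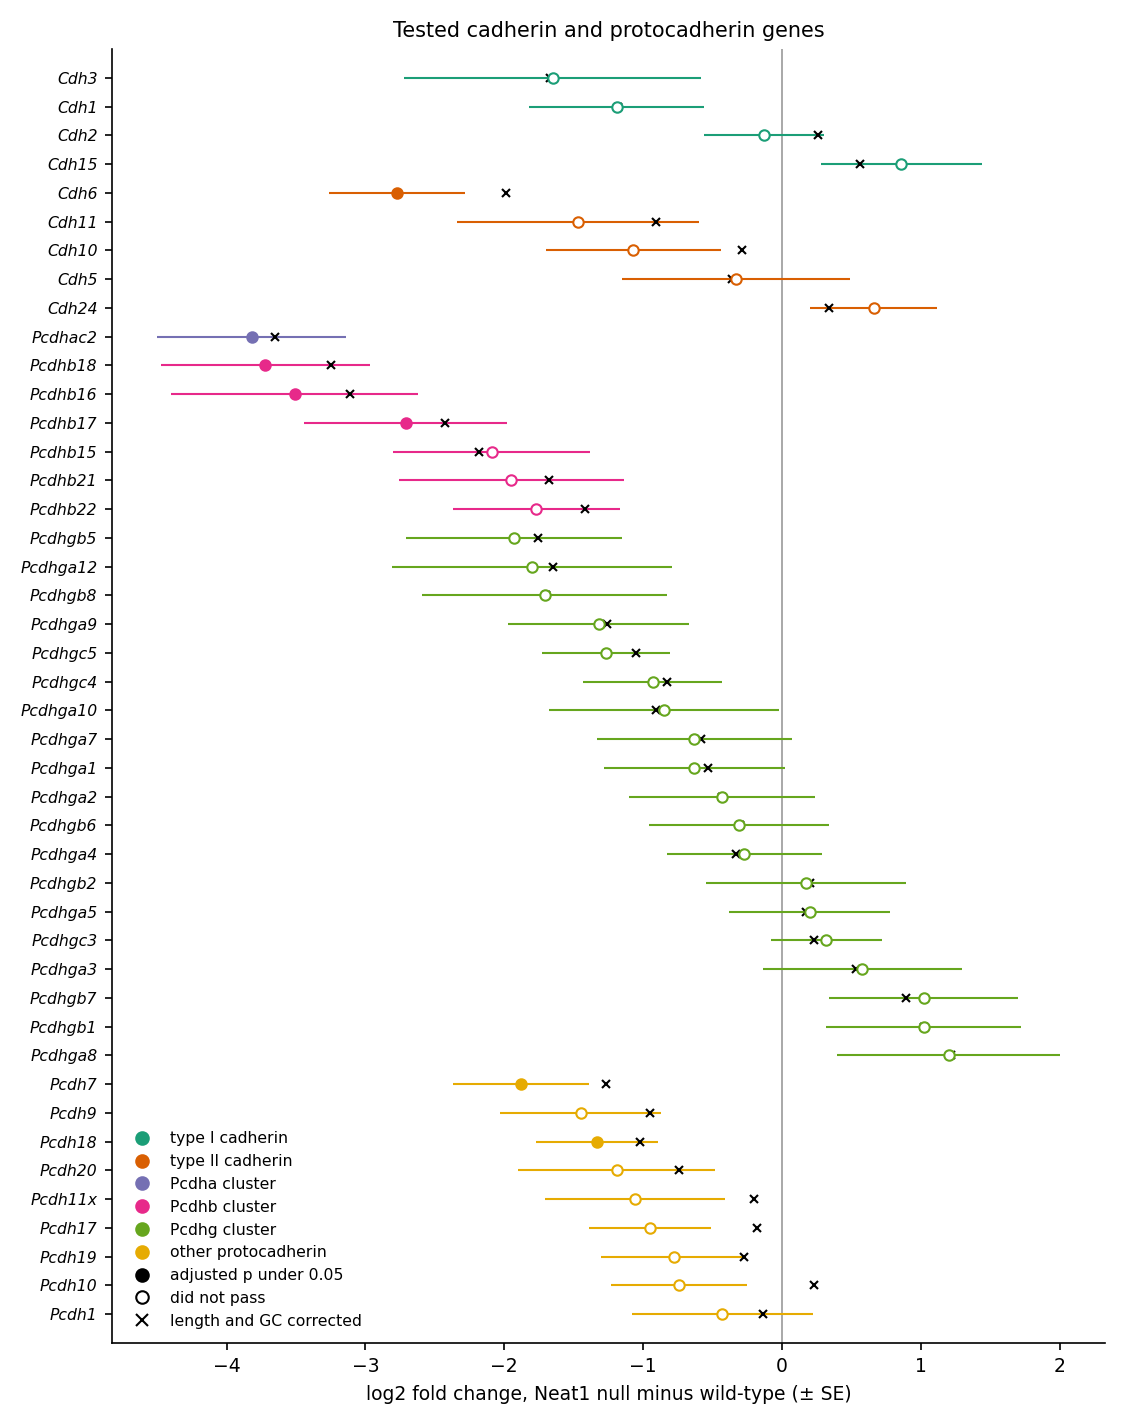
Log2 fold change (Neat1 null minus wild-type) of the 44 tested members by class, with bars of 1 SE, filled where the adjusted p is under 0.05, and with crosses for the values after the correction for gene length and GC content. Most values lie below 0, Pcdhac2 and Pcdhb18 furthest, and the median of the other protocadherins moves to -0.27 with the correction while that of the Pcdhg cluster stays at -0.43.

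Ordered by level per kilobase of unshared exon, Pcdhgc3 came first in both groups. In Neat1 null libraries it was followed by Cdh2 at 4.45, Cdh24 at 3.92 and Pcdh7 at 3.10 mean CPM per kb, and in wild-type libraries by Pcdh7 at 11.4, Cdh2 at 4.87 and Pcdh19 at 2.97 mean CPM per kb. By these means Pcdh7 stood behind Cdh2 in Neat1 null and ahead of it in wild-type libraries. Library by library, Pcdh7 was behind Cdh2 in Neat1 null libraries 1 and 3 only, and ahead of it in Neat1 null libraries 2 and 4. The order of Cdh2, Cdh24 and Pcdh7 differed between Neat1 null libraries. Per kilobase, Cdh2 was above Pcdh19 in every wild-type library.

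Genes that work with cadherins were examined as lists. Of 13 tested catenins and junction partners, 2 were lower and 0 higher in Neat1 null cells, and the list median was -0.26. The 2 are Ctnna2, the neuronal alpha-catenin (-4.94, SE 1.15, edgeR adjusted p = 0.0189), and Ctnnd2, the neuronal delta-catenin (-3.33, SE 0.69, edgeR adjusted p = 0.018). DESeq2 called Ctnnd2 alone. Both were scarce, with Ctnna2 at 0 to 0.180 CPM in Neat1 null and 0.398 to 7.35 CPM in wild-type libraries. Of 9 Snail, Zeb, Twist and E-protein transcription factors that drive the switch from E- to N-cadherin, edgeR called 0, with 2 lower and 1 higher at an unadjusted p under 0.05, and DESeq2 called 0. Of 17 chromatin regulators of the clustered protocadherins, including CTCF and cohesin, edgeR called 0, with 2 lower and 0 higher at an unadjusted p under 0.05, and DESeq2 called 0. The list had a median of -0.37, which became 0.29 after the length and GC correction.

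Of 11 genes for cadherin cleavage, 1 was higher, the gamma-secretase subunit Psenen (1.41, SE 0.39, edgeR adjusted p = 0.0259), and it did not pass after the length and GC correction (adjusted p = 0.128). Of 12 protocadherin signalling partners, the WAVE complex subunit Cyfip2 was lower (-1.99, SE 0.39, edgeR adjusted p = 0.018). Another WAVE subunit, Brk1, was higher (1.73, SE 0.53, edgeR adjusted p = 0.0377) but not after that correction (adjusted p = 0.173). In the rest of the cadherin superfamily 5 of 11 tested genes were lower and 0 higher, with a median of -1.47. They include the desmosomal cadherins Dsg2 (-1.47, SE 0.36, edgeR adjusted p = 0.02) and Dsc2 (-1.58, SE 0.44, edgeR adjusted p = 0.0285). Fat4, a giant cadherin of planar polarity (-2.45, SE 0.65, edgeR adjusted p = 0.0236), and the calsyntenin Clstn3 (-2.39, SE 0.70, edgeR adjusted p = 0.0329) were lower as well. After the length and GC correction 2 of the 5 passed, Dsg2 and Clstn3. None of the calls in these lists held without Neat1 null library 3, wild-type library 3 or wild-type library 4.

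Markers of other cell types were measured beside these results. Fibroblast markers had 2 lower (Pdgfra and Col6a1) and 1 higher (S100a4) among 12 tested, with Pdgfra, the receptor for platelet-derived growth factor, at 3.92 to 10.9 CPM in Neat1 null and 40.9 to 148 CPM in wild-type libraries (-3.59, SE 0.51, edgeR adjusted p = 0.00806). The summed level of the 14 fibroblast markers was 2628 to 4088 CPM in Neat1 null and 1868 to 3901 CPM in wild-type libraries. Of 8 tested epithelial markers edgeR called 0, with 3 higher and 0 lower at an unadjusted p under 0.05 and 2 called higher by DESeq2 (Krt18 and Krt19), and the list's summed level was 297 to 3361 CPM in Neat1 null and 243 to 749 CPM in wild-type libraries, with Krt14 at 0. Neural and glial markers had 1 lower (Map2) among 7 tested and summed to 78.0 to 566 CPM in Neat1 null and 215 to 351 CPM in wild-type libraries, with Dcx at 0. Endothelial markers had 0 called by edgeR among 2 tested, with 1 lower and 1 higher at an unadjusted p under 0.05 and 2 called lower by DESeq2 (Kdr and Emcn). Muscle markers had 0 called by either tool, with 1 gene tested, 0 at an unadjusted p under 0.05, and Myod1 and Myf5 at 0. Blood markers had 1 lower (Cd68) among 2 tested, with Ptprc at 0, and DESeq2 also called Cd14 higher. Endothelial markers summed to 22.8 to 151 CPM in Neat1 null and 35.1 to 77.2 CPM in wild-type libraries, muscle markers to 2.64 to 14.9 CPM in Neat1 null and 3.10 to 15.4 CPM in wild-type libraries, and blood markers to 13.1 to 32.0 CPM in Neat1 null and 14.8 to 108 CPM in wild-type libraries. After the length and GC correction S100a4 and Map2 did not pass (edgeR adjusted p = 0.266 and 0.282), while Pdgfra, Col6a1 and Cd68 did. None of Col6a1, S100a4, Map2 and Cd68 passed without Neat1 null library 3, wild-type library 3 or wild-type library 4. Pdgfra did not pass without Neat1 null library 3 (edgeR adjusted p = 0.0646) but passed without wild-type library 3 or 4. The part of any cell mixture in the cadherin results was not tested.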

How the data were processed

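The members and the gene lists were chosen with earlier results of these data known. The deposited values are raw counts of reads for each gene symbol, with a file for every library. The submitters' processing notes name CASAVA 1.8, STAR, DESeq2 and the mm10 build, and the read counter, its strand setting and its annotation are not given in the sources used here. Per the labels, the kit keeps strand information. Entries that name no gene, 5.48% to 11% (no feature) and 1.34% to 1.76% (ambiguous) of Neat1 null counts and 9.83% to 15.7% and 1.09% to 1.22% of wild-type counts, were left out.

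Genes passing filterByExpr (minimum count 10) in edgeR 4.0.16 (R 4.3.3) were scaled by TMM and tested with the robust quasi-likelihood F test on genotype over all 8 libraries, with Benjamini-Hochberg adjustment over all 13316 genes and a threshold of 0.05. Log2 fold changes were taken as Neat1 null minus wild-type, and their SE as the size divided by the square root of F. Exon lengths and positions came from GENCODE M21 (GRCm38, also called mm10), in which 92 members matched. The length and GC correction added splines with 5 degrees of freedom as offsets. Named genes were all called members, the 3 highest per kilobase in each class, and Cdh1, Cdh2, Cdh5 and Cdh11. Promoter sequences came from RefSeq. Alternatives were DESeq2 1.42.0, other size factors and filters, left-out libraries and a replicate block. No 2 libraries of a group agreed within sampling noise (smallest chi-square over degrees of freedom 62.1).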

Additional observations from a re-analysis of the deposited data

Results flagged for a closer look

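Among 56 groups of 4 libraries tested for a library far from the rest, 2 were found, where chance gives about 1 in 20. Both concern wild-type library 1. Cdh2 was at 61.7 CPM there, against 30.0 to 35.3 CPM in the other wild-type libraries. Pcdh19 was at 60.9 CPM there, against 18 to 24.8 CPM in the other wild-type libraries. Without wild-type library 1 the log2 fold change of Cdh2 was 0.18, against -0.13 with all libraries, and that of Pcdh19 was -0.21, against -0.78.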

How the results depend on the processing

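Against 7 members called lower and 2356 genes called in all, DESeq2 gave 15 and 3589, and no low-count filter gave 12 lower, without Pcdh18, and 1 higher (Cdh13). Without Neat1 null libraries 1 and 3 together the fit called 0 members and 7 genes, with 13 of 54 members and 13.3% of all genes lower at an unadjusted p under 0.05. Leaving out single libraries gave 0 to 10 members and 11 to 2965 genes. The cause was not tested. Upper-quartile factors called 10 members (10.7% of all genes lower), and moved the median of all genes to -0.24 and the calls to 1036 higher and 1428 lower, against 1328 higher and 1028 lower with TMM. The stricter filter (1 CPM or more in 4 libraries) called 8 of 28 members lower, without Pcdhb18, which it left untested, and with Pcdhb15 and Pcdhb22. It called 954 genes lower and 1262 higher in all. At an unadjusted p under 0.05, 11 of the 28 members and 17.6% of all genes were lower with this filter. RLE factors and the fit without the robust option kept the same 7. Class medians moved to -0.27 for other protocadherins with the length and GC correction, to -0.14 for the Pcdhg cluster without Neat1 null libraries 1 and 3, and to between -2.08 and -0.93 for type II cadherins with single libraries left out, the lowest without Neat1 null library 4. The sign of Cdh2 turned with the length and GC correction (0.26), and single left-out libraries moved it between -0.50 and 0.18, Pcdhgc3 between -0.13 and 0.57 and Cdh5 between -1.09 and 0.10. Cdh5 was at 0.44 without Neat1 null libraries 1 and 3. Of 118 values of the called members under alternatives, 84 stayed past the threshold, 34 fell short and 0 changed sign.

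Same-numbered libraries did not steadily deviate together, with correlations of 0.317, -0.258, -0.014 and 0.107. Of 4 Neat1 null libraries, 1 correlated best with the wild-type library of its own number. With 4 libraries per group this check cannot exclude that the replicate numbers mark a pairing. The main fit took no account of them. With the replicate number as a block, 8 of 44 members (without Pcdh18, with Pcdhb15 and Pcdhb22) were called lower. Of the 2245 genes called in all, 1152 were lower and 1093 higher. At an unadjusted p under 0.05, 17 members and 18.2% of all genes were lower in this fit. Low counts limit the Pcdha and proximal Pcdhb genes, most of which had too few reads to test at this depth.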
